A study of Mus musculus with 6 samples.

Results

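The antigens that define the KLS sort were followed at the RNA level: Kit and Sca-1 (the product of Ly6a), which the gate requires, and antigens of mature blood cells, which antibody cocktails of this kind are used to remove. They were 8 genes, Kit, Ly6a, Ptprc, Cd3e, Cd4, Cd8a, Itgam and Ly6g, of 22103 genes measured. The members are the probe sets that carry exactly 1 gene symbol and whose symbol is 1 of these genes, which gave 165 of 318760 probe sets with 1 symbol and of 1256831 in all. Kit had 25 probe sets, Ly6a 4, Ptprc 53, Cd3e 9, Cd4 14, Cd8a 15, Itgam 41 and Ly6g 4. All of them were kept whatever their level, and a gene's value is the mean log2 intensity of its probe sets.

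The study hybridised RNA of mouse KLS cells from 3 wild-type and 3 Dnmt3a+/- samples, 1 array each, where Dnmt3a+/- names a heterozygous genotype at the gene for the DNA methyltransferase Dnmt3a. The labels give no other treatment, allele design, age, sort antibodies or animal for any sample, and they do not say whether the arrays of a genotype came from separate mice, and every p-value is therefore about the spread of these 6 arrays, part of which may be technical. The series title places the comparison in the question of whether loss of 1 Dnmt3a copy predisposes blood-forming cells to myeloid disease.

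Kit is the receptor tyrosine kinase for stem cell factor. On binding its ligand it recruits adaptors and kinases that drive survival and growth of early blood cells, and it is shut down by phosphatases and ubiquitin ligases. Sca-1 is a lipid-anchored surface protein of the Ly6 family whose transcription in other settings responds to interferon. Cd3e, Cd4 and Cd8a belong to the T cell receptor complex and its coreceptors. Ptprc encodes CD45, the phosphatase on nearly all nucleated blood cells, and its B220 isoform is the antigen by which B cells are removed, so its RNA as a whole is not a lineage signal. Itgam encodes the alpha chain of the Mac-1 integrin of myeloid cells, and Ly6g encodes a neutrophil antigen recognised by the Gr-1 antibody.

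Some facts of the arrays bear on every value. Dnmt3a itself, over 37 probe sets, had gene values of 8.41, 8.63 and 8.41 on the wild-type arrays and 8.27, 8.15 and 8.12 on the Dnmt3a+/- arrays (difference -0.31, limma adjusted p = 0.668). All Dnmt3a+/- arrays lay below all wild-type arrays, but where these probe sets lie relative to the altered part of the gene is not known here, so the value is no check of the labels. Dnmt3a+/- replicate 2 stood apart: its mean correlation with the other arrays over all gene values was 0.962, against 0.973 to 0.977 for the others. The 2211 brightest genes had a median difference of -0.14 (Dnmt3a+/- minus wild-type, log2, as everywhere here), and 84.6% of them were negative, while over all genes the median was -0.02 and 54.2% were negative. Without Dnmt3a+/- replicate 2 these genes had a median of -0.06 and 68.1% negative. Kit, Ly6a and Ptprc were among these brightest genes, of which 19.2% had all Dnmt3a+/- arrays lowest.

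No gene passed an adjusted p of 0.05 in limma (0 of 22103, 0%, smallest adjusted p = 0.0528), and at an unadjusted p under 0.05 there were 1619 genes, 7.32%, of which 4.38% of all genes were lower and 2.95% higher in Dnmt3a+/-. By array values alone, all Dnmt3a+/- arrays lay below all wild-type arrays for 8.96% of genes and above them for 6.26%. In the other settings tried the count past the adjusted threshold was at most 2. No antigen gene passed it in any of them.

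The sequences before the start sites of the genes are shown for Kit, Ptprc and Ly6g because these were the antigens whose gene values did not overlap between genotypes. The dinucleotide CG, which Dnmt3a methylates, is in capitals, and it reads the same on both strands. Each run is the 250 bases before the most upstream RefSeq start of the gene, 5′ to 3′ on the gene's strand, in assembly GRCm38.p6: Kit at chr5:75574737-75574986 on the plus strand, Ptprc at chr1:138175306-138175555 on the minus strand and Ly6g at chr15:75155011-75155260 on the plus strand.
Kit: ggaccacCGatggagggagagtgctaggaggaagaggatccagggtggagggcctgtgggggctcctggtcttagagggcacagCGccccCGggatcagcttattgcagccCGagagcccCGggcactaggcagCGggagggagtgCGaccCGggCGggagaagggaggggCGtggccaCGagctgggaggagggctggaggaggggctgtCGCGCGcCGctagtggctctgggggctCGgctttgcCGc
Ptprc: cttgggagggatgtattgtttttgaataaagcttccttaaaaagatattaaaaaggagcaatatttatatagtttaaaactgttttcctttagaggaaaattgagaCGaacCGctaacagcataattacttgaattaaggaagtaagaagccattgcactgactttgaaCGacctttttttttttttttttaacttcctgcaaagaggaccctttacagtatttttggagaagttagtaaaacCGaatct
Ly6g: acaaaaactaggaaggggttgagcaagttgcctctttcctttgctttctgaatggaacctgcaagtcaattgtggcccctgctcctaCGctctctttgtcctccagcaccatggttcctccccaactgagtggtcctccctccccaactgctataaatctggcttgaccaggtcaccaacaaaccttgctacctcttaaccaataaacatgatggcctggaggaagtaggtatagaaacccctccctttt
The Kit window held 17 CG, a number that 23.5% of the 32851 windows of this length in the RefSeq table reach. The Ptprc window held 4 CG, reached by 62.2%, and the Ly6g window held 1, reached by 92.1%. The median window held 6. Among the other antigens with an entry, Cd3e had 7 CG, Itgam 6 and Cd8a 0. The contrast is between a GC-rich window before Kit (70.8% G and C) and an AT-rich one before Ptprc (31.6%). Methylation was not measured in these data, and the sequences are a description only.

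Before genotypes are compared, the signal of the antigens over background shows which of them the arrays measured. As a dim reference served 3817 probe sets of olfactory and vomeronasal receptor genes, whose 95th percentile lay at log2 7.04, and the median of all probe sets at log2 5.89. Of the Kit probe sets, 25 of 25 lay above the receptor percentile, as did 3 of 4 of Ly6a. Ptprc had 47 of 53 above it and Itgam 31 of 41. The T cell antigens were dimmer, with 3 of 9 for Cd3e, 1 of 14 for Cd4 and 0 of 15 for Cd8a. Ly6g had 0 of 4, and none of its probe sets reached the median of all probe sets either.

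Signal was also read on each array against that array's own receptor percentile. Kit had 24 or 25 of its probe sets above it on all 6 arrays, and Ly6a had 3 on each. Cd8a and Ly6g had 0 on all 6 arrays, and Cd4 had 1. Cd3e had 3, 2 and 3 probe sets above it on the wild-type arrays and 3, 2 and 4 on the Dnmt3a+/- arrays. Ptprc had 48, 47 and 48 against 46, 44 and 46, and Itgam 33, 32 and 33 against 29, 16 and 26. The percentile itself was higher on the Dnmt3a+/- arrays (7.24, 7.38 and 7.23) than on the wild-type arrays (7.13, 7.04 and 7.02), which lowers the Dnmt3a+/- counts, and it was highest on replicate 2. Over all named probe sets 46.9% lay above the receptor percentile, so Kit, Ly6a, Ptprc and Itgam stood above this share and Cd3e, Cd4, Cd8a and Ly6g below it.

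**Figure D1:**
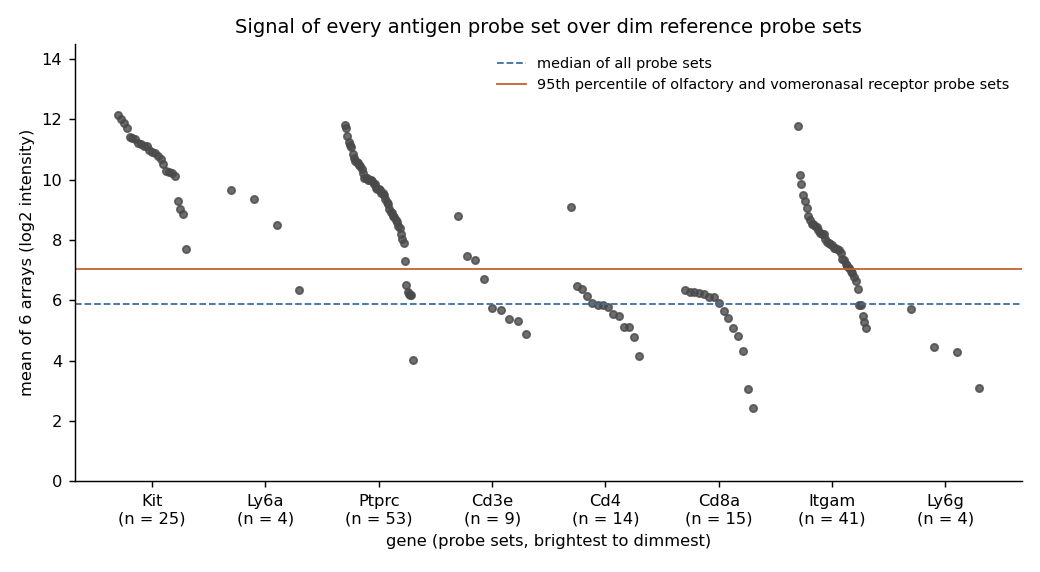
Mean log2 intensity over 6 arrays (y axis) of each of the 165 antigen probe sets (points), ordered within each gene from brightest to dimmest (x axis), with the median of all probe sets (dashed line, 5.89) and the 95th percentile of receptor probe sets (solid line, 7.04). All Kit points lie above the solid line, while all Cd8a and Ly6g points lie under it and Cd4 has 1 point over it.

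Other genes expected of the sorted cells were read in the same way. Of 15 further stem and progenitor markers measured, 14 had a gene value above the receptor percentile, Slamf1 being the one that did not. Of 11 other T and NK cell markers 3 lay above it (Cd247, Lat and Nkg7), and of 9 B cell markers 2 (Cd79b and Vpreb1). Of 12 other neutrophil markers 9 lay above it, among them S100a8, a neutrophil calcium-binding protein, and Mpo, the granule peroxidase that progenitors also make. In a bulk sample a smaller share of cells of one type and less RNA per cell cannot be told apart.

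Kit gene values were 10.74, 10.80 and 10.68 on the wild-type arrays and 10.65, 10.63 and 10.59 on the Dnmt3a+/- arrays. All Dnmt3a+/- arrays lay below all wild-type arrays, by a margin smaller than the spread within the wild-type group. The means were 10.74 ± 0.059 and 10.63 ± 0.030 (SD, n = 3 each), a difference of -0.11 (SE 0.11, 95% interval -0.37 to 0.14, fold 0.924). This did not pass (limma adjusted p = 0.768, exact two-sided permutation p = 0.1, the smallest that 3 against 3 arrays can give). The interval holds a decrease of up to 0.37 log2 units. After cyclic loess between arrays the difference was -0.07 and the genotypes overlapped.

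**Figure D2:**
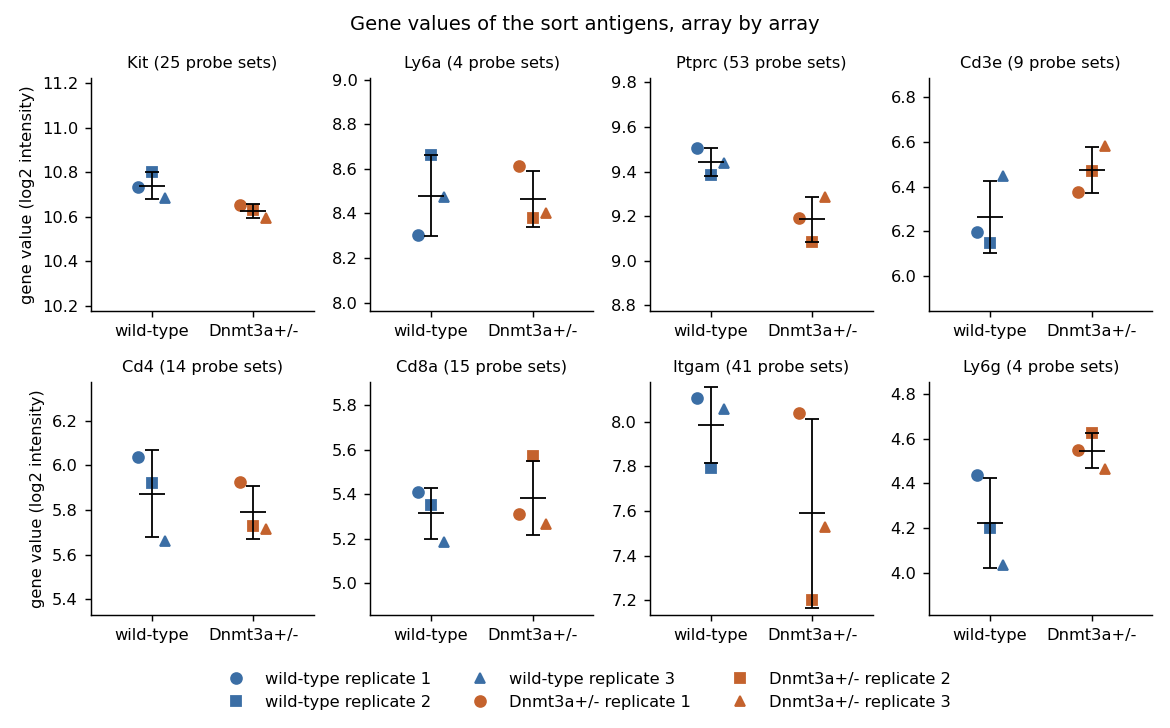
Gene value (y axis, mean log2 intensity of the gene's probe sets) of each antigen on each array (points), by genotype, with the mean and SD of 3 arrays (bars); each panel has its own y range of equal span. Kit and Ptprc have all Dnmt3a+/- points under, and Ly6g all above, the wild-type points, and the other 5 genes overlap.

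Single Kit probe sets spread around this value. Differences ran from -0.52 to 0.28 with a median of -0.11. Of the 25, 20 were negative (80%), where 55% of named probe sets and 61% of those above the receptor percentile were. All Dnmt3a+/- arrays were lowest at 4 of the 25 (16%) and highest at 0. Over named probe sets these shares were 6.82% and 4.7%, and 8.31% of those above the receptor percentile were lowest in Dnmt3a+/-. Kit is among the 2211 brightest genes, which had a median difference of -0.14. Counted by gene, 84.6% of these were negative and 19.2% had all Dnmt3a+/- arrays lowest. The brightest Kit probe set, 5103366, had values of 12.25, 12.28 and 12.16 in wild-type against 12.16, 12.11 and 11.90 in Dnmt3a+/-. Its genotypes met but did not separate. The most negative, 4886996, had 9.42, 9.59 and 9.64 against 9.37, 8.41 and 9.29, so its size came mostly from Dnmt3a+/- replicate 2. The most positive, 4673322, differed by 0.28 with overlapping genotypes. Without Dnmt3a+/- replicate 2 the Kit gene difference was -0.12, and 20 of 25 probe sets were negative.

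The genes that carry the Kit signal were mostly negative. Of 23 effectors measured (adaptors, kinases, Ras proteins, STAT factors and the ligand Kitl), 19 were negative and 4 positive, with a median of -0.15, and 7 (30.4%) were lower at an unadjusted p under 0.05 against 4.38% of all genes. None passed adjustment. Without Dnmt3a+/- replicate 2 this count was 3 and the median -0.07, and leaving out each array in turn gave counts from 2 (without wild-type replicate 2) to 5.

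Jak2, a cytoplasmic kinase activated by cytokine receptors, had values of 8.05, 8.07 and 8.02 in wild-type against 7.79, 7.53 and 7.63 in Dnmt3a+/-. The difference was -0.40 (SE 0.12, limma adjusted p = 0.668), and the genotypes did not overlap. Fyn, a Src family kinase, had 8.06, 7.96 and 7.86 against 7.59, 7.20 and 7.61, a difference of -0.49 (SE 0.15). Vav1, an exchange factor for Rac, had 8.63, 8.90 and 8.61 against 8.47, 8.11 and 8.25, a difference of -0.44 (SE 0.15). The others at this unadjusted level were Grb2, Shc1, Pik3r1 and Stat5b, with differences from -0.43 (Grb2) to -0.27 (Stat5b), each with all Dnmt3a+/- arrays lowest. Kitl, the ligand, which stromal cells make, was dim with a difference of 0.09.

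The inhibitors of Kit signalling had the same sign without any at an unadjusted p under 0.05. Of 11 measured, 9 were negative and 2 positive, with a median of -0.19. Cblb, a ubiquitin ligase, differed by -0.33 (SE 0.14) and Inpp5d, a lipid phosphatase, by -0.21 (SE 0.11), with all Dnmt3a+/- arrays lowest for both. Socs6, an adaptor that binds activated Kit, differed by -0.35 (SE 0.18) with overlapping genotypes. Effectors and inhibitors therefore both lay on the negative side, as did most bright genes, and whether the lists differ from bright genes at large was not tested.

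Ly6a gene values were 8.30, 8.66 and 8.47 in wild-type against 8.61, 8.38 and 8.40 in Dnmt3a+/-. The genotypes overlapped. The means were 8.48 ± 0.18 and 8.46 ± 0.13 (SD, n = 3 each), a difference of -0.015 (SE 0.14, 95% interval -0.34 to 0.31, limma adjusted p = 0.979, exact two-sided permutation p = 1). The sign turned with the setting: it was 0.01 after cyclic loess, 0.05 for the median of probe sets and 0.03 with array weights.

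The 4 Ly6a probe sets did not behave alike. At 4789109 the values were 9.87, 9.72 and 9.78 in wild-type against 9.63, 9.33 and 9.67 in Dnmt3a+/-, all lower, with a difference of -0.25. At 5356171 they were 9.02, 9.20 and 9.06 against 9.67, 9.70 and 9.53, all higher, with a difference of 0.54 (unadjusted p = 0.0335, limma adjusted p = 0.873 over all probe sets). Both lay above the receptor percentile. The other two, 5419219 and 5413818, were negative with overlapping genotypes, at -0.30 and -0.05. The gene value thus averaged probe sets of opposite sign.

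A further 2 probe sets carried the symbols of both Ly6a and its neighbour in the family Ly6c2 and are not members. Their values cannot be assigned to either gene. At 5214308 they were 10.38, 9.83 and 10.67 in wild-type against 10.39, 10.20 and 9.75 in Dnmt3a+/- (difference -0.18), and at 5613174 they were 10.97, 10.35 and 10.82 against 11.07, 10.60 and 10.25 (difference -0.07). The genotypes overlapped at both. Some Ly6 genes are near copies of each other, so the signal of 1 probe set may include relatives.

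**Figure D3:**
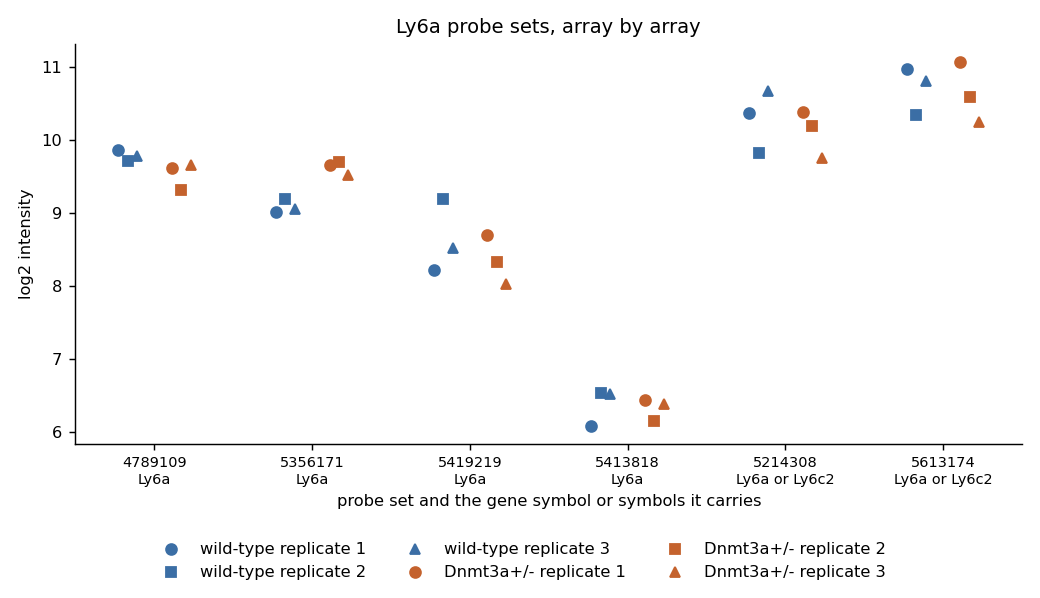
Log2 intensity (y axis) of each array at the 4 probe sets named Ly6a and the 2 that carry both Ly6a and Ly6c2 (x axis), wild-type and Dnmt3a+/- side by side. At 5356171 all Dnmt3a+/- points lie above the wild-type points, at 4789109 all lie below, and at the other 4 they overlap.

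Elsewhere in the Ly6 family, a group of small lipid-anchored or secreted proteins, 14 of 21 genes were positive and 7 negative, with a median of 0.07. Over all genes 54.2% were negative. Only 3 of the 21 lay above the receptor percentile, which was itself higher on the Dnmt3a+/- arrays. Whether the list differs from dim genes at large was not tested. At an unadjusted p under 0.05, 2 of the 21 were higher and 0 lower, against 2.95% and 4.38% of all genes. Ly6c2, a monocyte antigen, had values of 6.37, 6.32 and 6.25 in wild-type against 6.68, 6.88 and 6.54 in Dnmt3a+/- (difference 0.39, SE 0.13). Cd59b, an inhibitor of complement, had 5.66, 5.91 and 5.69 against 5.97, 6.82 and 6.36 (difference 0.63, SE 0.21). Both had all Dnmt3a+/- arrays highest and lay below the receptor percentile, and neither passed adjustment (limma adjusted p = 0.668). Slurp1, a secreted member, differed by -0.24 (SE 0.16). Ly6e and Ly6c1 differed by -0.05 and 0.02.

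Ptprc differed in 1 direction at nearly all of its probe sets. Its gene values were 9.51, 9.39 and 9.44 in wild-type against 9.19, 9.08 and 9.28 in Dnmt3a+/-, so the highest Dnmt3a+/- array lay below the lowest wild-type array. The means were 9.44 ± 0.061 and 9.19 ± 0.10 (SD, n = 3 each), a difference of -0.26 (SE 0.12, 95% interval -0.53 to 0.01, fold 0.837). It did not pass (unadjusted limma p = 0.0583, adjusted p = 0.668, exact two-sided permutation p = 0.1). In the 14 other settings the difference ran from -0.31 to -0.21, with all Dnmt3a+/- arrays lowest in each. These settings use the same arrays and are no independent support.

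Of the 53 Ptprc probe sets 48 were negative (90.6%), where 55% of named probe sets and 61% of those above the receptor percentile were. Ptprc is among the 2211 brightest genes. Of these, 84.6% were negative and 19.2% had all Dnmt3a+/- arrays lowest, counted by gene and not by probe set. Whether Ptprc differs from bright genes at large was not tested. The median difference of its probe sets was -0.24 and the range -0.98 to 0.43. All Dnmt3a+/- arrays were lowest at 13 (24.5%, against 6.82% of named probe sets and 8.31% of those above the receptor percentile) and highest at 0 (against 4.7%). On the Dnmt3a+/- arrays 48, 43 and 36 of 53 probe sets lay below the wild-type mean, with median deviations of -0.23, -0.33 and -0.13. On the wild-type arrays 20, 35 and 32 did, with median deviations of 0.07, -0.07 and -0.03, so Dnmt3a+/- replicate 3 lay close to wild-type replicate 2 by this count. Without Dnmt3a+/- replicate 2, 44 were negative. The probe sets share transcripts and samples, so their number is no number of replicates.

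At the Ptprc probe set with the most negative difference, 5364764, the values were 7.15, 6.22 and 6.99 in wild-type against 5.95, 5.44 and 5.999 in Dnmt3a+/-, a difference of -0.98. It is dim, and its wild-type spread is wide. The brightest, 5604003, differed by -0.03, and the highest, 4720179, by 0.43 at a level under both reference lines. At an unadjusted p under 0.05 there were 4 Ptprc probe sets (7.55%), all lower, near the 5.59% of all probe sets in either direction, and no probe set of the table passed adjustment (0 of 1256831, 0%, smallest adjusted p = 0.873). Which probe sets read the exons that give the B220 isoform is not known here.

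Partners of CD45 were less uniform. Of 10 measured, 6 were negative and 4 positive with a median of -0.09. At an unadjusted p under 0.05, 2 (20%) were lower, against 4.38% of all genes. These were Fyn (given with the Kit effectors, as a kinase of both lists) and Skap2. Skap2, an adaptor downstream of Src kinases, had 8.67, 8.48 and 8.40 in wild-type against 8.21, 7.86 and 8.17 in Dnmt3a+/- (difference -0.44, SE 0.14, limma adjusted p = 0.668). Ptprcap, which binds CD45 at the membrane, differed by -0.21 (SE 0.11) with all Dnmt3a+/- arrays lowest, and Cd22, a B cell receptor of CD45 glycans, by 0.52 (SE 0.26) with overlap. Cd22 was dim, with means of 5.28 in wild-type and 5.80 in Dnmt3a+/-, below the receptor percentile. Without Dnmt3a+/- replicate 2 the median of the list was 0.01.

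**Figure D4:**
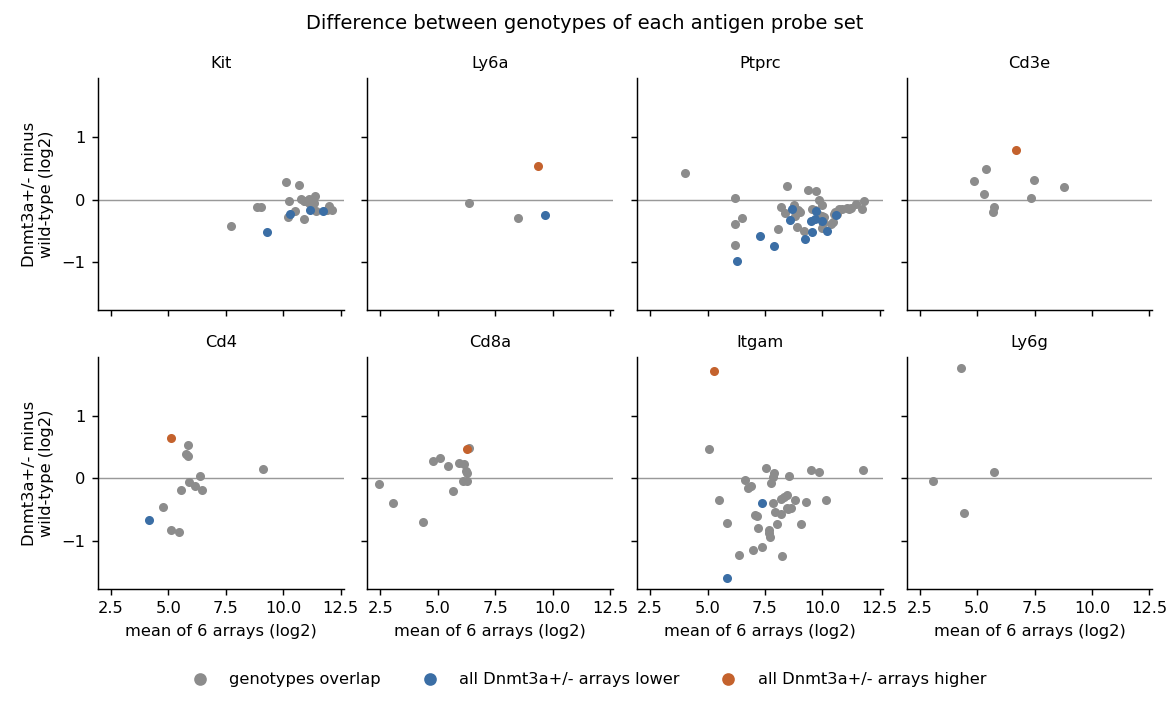
Difference of each antigen probe set (y axis, Dnmt3a+/- minus wild-type, log2) against its mean over 6 arrays (x axis, log2), by gene, coloured where all Dnmt3a+/- arrays lay below or above all wild-type arrays. Ptprc has 48 of 53 points below 0 and Itgam 32 of 41, and the widest differences are at dim probe sets of Itgam and Ly6g.

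Cd3e, a signalling chain of the T cell receptor complex, had gene values of 6.20, 6.14 and 6.45 in wild-type against 6.37, 6.47 and 6.58 in Dnmt3a+/-. Only wild-type replicate 3 reached into the Dnmt3a+/- range. The difference was 0.21 (SE 0.13, 95% interval -0.09 to 0.52, limma adjusted p = 0.688, exact two-sided permutation p = 0.2). Over its probe sets above the median of all, it was 0.33 with all Dnmt3a+/- arrays highest, and for the median of its probe sets it was -0.05. The highest difference was at 5355380, with 6.36, 6.31 and 6.27 against 6.83, 6.57 and 7.93, a difference of 0.80. The brightest Cd3e probe set, 5133040, and the most negative, 4927081 (-0.20), had overlapping genotypes.

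Cd4, a T cell coreceptor, had gene values of 6.04, 5.92 and 5.66 in wild-type against 5.93, 5.73 and 5.72 in Dnmt3a+/-, which overlap. The difference was -0.08 (SE 0.14, 95% interval -0.41 to 0.24, limma adjusted p = 0.869, exact two-sided permutation p = 0.7). Its 1 probe set above the receptor percentile, 4712532, had 9.10, 9.06 and 8.92 against 9.29, 9.25 and 8.996, a difference of 0.15 with overlap. The rest were dim. Their lowest difference was -0.86 at 4667208 (limma adjusted p = 0.873) and their highest 0.66 at 5035984.

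Cd8a, the other coreceptor, was at background on all arrays. Its gene values were 5.41, 5.35 and 5.19 in wild-type against 5.31, 5.57 and 5.26 in Dnmt3a+/-, a difference of 0.07 (SE 0.13, 95% interval -0.24 to 0.38, limma adjusted p = 0.886, exact two-sided permutation p = 0.7). Differences of its 15 probe sets ran from -0.70 at 5551370 to 0.49 at 4636997, its brightest, and 9 were positive. At this signal a difference between genotypes was not detectable.

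Among 13 partners of the T cell receptor and its coreceptors 9 were negative and 4 positive (median -0.05), and 0 in either direction had an unadjusted p under 0.05 in limma. Cd5, a T cell inhibitory receptor, differed by 0.21 (SE 0.11) with all Dnmt3a+/- arrays highest, at a level below the receptor percentile. Lcp2, an adaptor also used in myeloid cells, differed by -0.27 (SE 0.15), and Cd27, a receptor that multipotent progenitors also carry, by -0.19 (SE 0.11) with all Dnmt3a+/- arrays lowest. The other Cd3 chains, Cd3d and Cd3g, differed by -0.03 and 0.15. Over the T and NK marker list without these antigens, 6 genes were negative and 5 positive. Their mean per array ran from 6.33 to 6.47 in wild-type, and from 6.25 to 6.35 in Dnmt3a+/-.

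Itgam had gene values of 8.11, 7.79 and 8.06 in wild-type against 8.04, 7.20 and 7.53 in Dnmt3a+/-. Dnmt3a+/- replicates 2 and 3 lay below all wild-type arrays, and replicate 1 lay among them. The means were 7.99 ± 0.17 and 7.59 ± 0.42 (SD, n = 3 each), a difference of -0.40 (SE 0.22, 95% interval -0.89 to 0.10, fold 0.76). It did not pass (limma adjusted p = 0.668, exact two-sided permutation p = 0.2). It was -0.20 without Dnmt3a+/- replicate 2, -0.62 without Dnmt3a+/- replicate 1 and -0.15 with array weights, so single arrays set its size.

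Of the 41 Itgam probe sets 32 were negative (78%) and 9 positive, with a median of -0.39. Of named probe sets 55% were negative, and of those above the receptor percentile 61%. All Dnmt3a+/- arrays were lowest at 2 Itgam probe sets (4.88%, against 6.82% of named probe sets). On the Dnmt3a+/- arrays 20, 32 and 28 of the 41 lay below the wild-type mean, with median deviations of 0.03, -0.64 and -0.32. Wild-type replicate 2 had 34 below it, so the probe sets also moved together within the wild-type group. The brightest, 5010910, had 11.71, 11.46 and 11.96 against 11.75, 11.93 and 11.87, a difference of 0.14 with overlap. The most negative, 4699049, had 6.69, 6.56 and 6.73 against 5.75, 5.44 and 3.98 (difference -1.60), and the most positive, 4384478, had 4.50, 4.07 and 4.65 against 6.66, 6.80 and 4.93 (difference 1.72). Both of these were dim.

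Genes that work with Itgam were nearly all negative. Of 14 leukocyte integrins and partners 13 were negative and 1, Cd14, positive (0.36), with a median of -0.18. Of the 14, 10 lay above the receptor percentile. The 2211 brightest genes, which start at a higher line (gene value 8.44), had a median of -0.14 with 84.6% negative. Some of the 10, such as Itgb2, are not among them. Without Dnmt3a+/- replicate 2, 12 of the 14 were negative, as were 68.1% of the brightest genes. Whether the list differs from bright genes at large was not tested. At an unadjusted p under 0.05, 1 (7.14%) was lower, against 4.38% of all genes. This was Rap1a, a small GTPase that activates integrins, with 9.44, 9.58 and 9.53 in wild-type against 9.15, 9.12 and 9.22 in Dnmt3a+/- (difference -0.35, SE 0.11, limma adjusted p = 0.668). Itga4 and Itgal, alpha chains of other leukocyte integrins, differed by -0.27 and -0.39 with all Dnmt3a+/- arrays lowest. Itgb2, the beta chain that pairs with Itgam, differed by -0.21 with overlap.

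Ly6g gene values were 4.44, 4.20 and 4.04 in wild-type against 4.55, 4.63 and 4.47 in Dnmt3a+/-, higher on all Dnmt3a+/- arrays. The difference was 0.32 (SE 0.14, 95% interval 0.003 to 0.64, unadjusted limma p = 0.0484, adjusted p = 0.668, exact two-sided permutation p = 0.1). None of the 4 probe sets stood above the median of all probe sets, so the value is at background and gives no measured level. The positive value came from 5208042, with 4.27, 2.51 and 3.40 against 5.54, 5.89 and 4.09 (difference 1.78, unadjusted p = 0.0227, adjusted p = 0.873), whose genotypes overlap. The most negative, 4544724, differed by -0.56, and the brightest, 5208352, by 0.11. For the median of the probe sets the gene difference was 0.57.

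Other myeloid markers lay as follows beside these antigens, and their part in the results was not tested. Of 12 neutrophil markers other than Ly6g, 10 were positive and 2 negative, with a median of 0.36. Single arrays set this: with Ly6g in the list (13 genes, 2 negative, median 0.32), 5 were negative and the median was 0.07 without wild-type replicate 2, and 6 were negative with a median of 0.30 without Dnmt3a+/- replicate 1. The 12 genes' mean per array ran from 8.36 to 8.92 in wild-type, and from 8.78 to 9.42 in Dnmt3a+/-, which overlap. Retnlg, a secreted protein of neutrophils, had 7.44, 7.08 and 7.38 against 8.56, 7.996 and 7.89 (difference 0.85, SE 0.20), and Mmp8, a neutrophil collagenase, differed by 0.56 (SE 0.19). Of 13 monocyte and macrophage markers 10 were positive and 3 negative (Ly6c2 and Cd14, given above, among the positive), with means of 6.30 to 6.47 and 6.32 to 6.50. Only 3 of the 13 lay above the receptor percentile. Csf1r, the growth factor receptor of macrophages, had 7.84, 7.68 and 7.76 against 7.43, 6.58 and 6.68 (difference -0.86, SE 0.22), and Vcam1, an adhesion molecule, differed by 0.53 (SE 0.19). None of these passed adjustment (limma adjusted p = 0.668 for Retnlg and for Csf1r).

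Further antigens that lineage cocktails use were also read. Of 9 measured, 5 were negative and 4 positive (median -0.05), and 0 had an unadjusted p under 0.05 in limma. Il7r, the interleukin 7 receptor of lymphoid progenitors, differed by -0.39 (SE 0.20), Cd5 by 0.21 and Itgax, an integrin chain of dendritic cells, by -0.18 (SE 0.17). Il7r, Cd5 and Itgax were dim, as only 1 of the 9 genes, Ly6c1, lay above the receptor percentile. Over all 95 distinct genes of the lists around the antigens, 9 (9.47%) were lower and 2 (2.11%) higher at an unadjusted p under 0.05, against 4.38% and 2.95% of all genes, and 0 passed adjustment. Of the 9, 7 were Kit effectors. The count of 9 was 3 when genes were the median of their probe sets, and also without wild-type replicate 2.

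**Figure D5:**
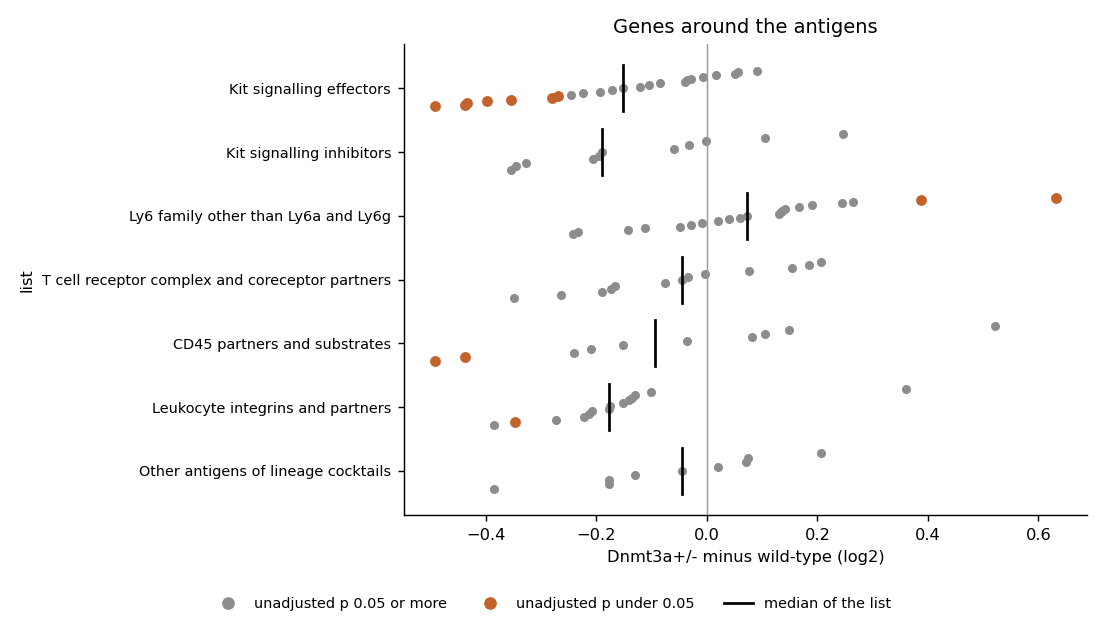
Difference of each partner gene (points, x axis, Dnmt3a+/- minus wild-type, log2) by list (y axis), coloured where the unadjusted limma p was under 0.05, with each list's median (vertical bar). Kit effectors hold 7 coloured points, all negative, and the Ly6 family 2, both positive; Fyn appears in 2 lists.

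Over the 165 antigen probe sets together, 121 were negative and 44 positive (73.3% negative). Of named probe sets 55% were negative, and of those above the receptor percentile 61%. Ptprc gave 53 of the 165 and Itgam 41. All Dnmt3a+/- arrays were lowest at 21 of the 165 (12.7%, against 6.82% of named probe sets) and highest at 5 (3.03%, against 4.7%). Kit and Ptprc held 17 of the 21. At an unadjusted p under 0.05 there were 9 (5.45%), near the 5.59% of all probe sets. Without Dnmt3a+/- replicate 2 there were 5.

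The genes whose pattern over the 6 arrays lay closest to Kit, by the root mean square difference of centred log2 values among 10255 genes, were Fam98b (0.0205), C330007P06Rik (0.022) and Wdr13 (0.0233). Each had all Dnmt3a+/- arrays lowest, with differences of -0.11, -0.11 and -0.10. Closest to Ly6a were Tinf2 (0.0271), Fbxo6 (0.0349) and Cc2d1b (0.042), which like Ly6a were highest on wild-type replicate 2 and next on Dnmt3a+/- replicate 1 among their own arrays. With 6 points such likeness is a description, and the shared order of arrays and size of difference follow from how these genes were chosen.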

How the data were processed

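Total RNA of KLS cells was extracted with TRIzol, and 20 ng was amplified as whole-transcript cDNA and labelled with biotin, per the labels' protocols. The authors deposited 1 normalized intensity per probe set and array, made with RMA in Partek per the submitters' processing notes; no version was given there. RMA forces the arrays to a common distribution, which hides any shift that most genes share. Values ran from 1.84 to 22239 with array medians of 59.78 to 61.61, so they were linear, and log2 was taken with no pseudocount.

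Probe sets were named by the platform's annotation, which can be old. Of its 22296 symbols 18006 were current in RefSeq (GRCm38.p6) and 4227 were updated; 6684 probe sets with several symbols were left unnamed. Genome positions of the probe sets were not used. Promoter sequences are RefSeq's, and 6 of the 8 antigens matched. Ly6a and Cd4 had no entry.

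Genes (the mean of all named probe sets) and single probe sets were tested between genotypes by lmFit and eBayes without a covariate (limma 3.58.1, R 4.3.3), with p-values adjusted by Benjamini-Hochberg over the whole table and checked on simulated data. Single gene values also had an exact two-sided permutation test. Precision is limited by the number of arrays, 3 per genotype. The antigens, partner lists and marker lists were chosen with earlier results of these data known. Genes named are the antigens, the 3 of each list with the smallest p, the 3 closest in pattern to Kit and to Ly6a, and each antigen's brightest, lowest and highest probe set; other genes and probe sets named were chosen after their values were seen. Alternatives were 2 level filters, the median of probe sets, cyclic loess, a second quantile normalization, the replicate number as a block, array weights, trended robust estimation and each array left out.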

Additional observations from a re-analysis of the deposited data

How the results depend on the processing

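Kit, Ptprc and Itgam kept a negative difference in all 14 alternatives, from -0.14 to -0.07, -0.31 to -0.21 and -0.62 to -0.15, and Ly6g a positive one, from 0.23 to 0.57, in the 12 that gave it a value; no Ly6g probe set passed either level filter, and no Cd8a probe set the stricter one. The sign of Ly6a turned with the median of probe sets (0.053), cyclic loess (0.013), a second quantile normalization (0.0038) and array weights (0.029), that of Cd3e with the median of probe sets (-0.052), and that of Cd4 with probe sets above the 75th percentile only (0.15) and with array weights (0.022). With each array left out, Ly6a ran from -0.10 to 0.077 and Cd8a from -0.027 to 0.13. The causes were not tested. Genes past an adjusted p of 0.05 numbered 2 with array weights, 1 with trended robust estimation and 0 to 1 with an array left out. Kit effectors lower at an unadjusted p under 0.05 (7) were 4 with the 75th percentile filter, 3 with the median of probe sets and 2 to 5 with an array left out; partner genes lower (9) were 3 with the median and 3 to 12, and higher (2) 1 to 4. Antigen probe sets lowest in Dnmt3a+/- (21) were 28 to 47, highest (5) 8 to 14 and at an unadjusted p under 0.05 (9) 4 to 17 with an array left out; fewer arrays separate more easily. With the replicate block, Kit effectors lower were 3, partner genes lower 5 and antigen probe sets at an unadjusted p under 0.05 7, and Itgam had an unadjusted p of 0.0466 (adjusted p = 0.751 in limma). Deviations of same-numbered arrays from their group means correlated at -0.0549, -0.0704 and 0.0962 over all genes. The labels do not say whether same-numbered samples were paired. Correlations over all genes with so few arrays cannot decide it. Cd8a, Ly6g and all but 1 Cd4 probe set lay under the receptor percentile, which limits what can be seen of them.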

Other observations

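Markers of further lineages were also read beside the antigens. Of 15 stem and progenitor markers other than Kit and Ly6a, 13 were negative and 2 positive, with a median of -0.14. Of the 15, 14 lay above the receptor percentile. The 2211 brightest genes, which start at a higher line (gene value 8.44), had a median of -0.14 with 84.6% negative. Some of the 14, such as Procr, are not among them. With Kit and Ly6a in the list (17 genes, 15 negative), 11 were negative without Dnmt3a+/- replicate 2. Without that array 68.1% of the brightest genes were negative. Whether these markers differ from bright genes at large was not tested. Flt3, a cytokine receptor of multipotent progenitors, differed by -0.32 (SE 0.17), Cd34 by -0.23 (SE 0.14) and Myb, a transcription factor of progenitors, by -0.21 (SE 0.12), with none at an unadjusted p under 0.05. Klrd1, an NK cell receptor, differed by -0.95 (SE 0.21) and Gzma, a granzyme, by 0.33 (SE 0.11), each with the genotypes apart. Over all genes 8.96% were apart and lower and 6.26% apart and higher in Dnmt3a+/-. Klrd1 and Gzma both lay below the receptor percentile. Of 9 B cell markers 7 were positive, with Cd79a at 0.71 (SE 0.31) and Igll1 at 0.33 (SE 0.28), both overlapping and below the receptor percentile. Of 7 erythroid markers 5 were negative, led by Ermap at -0.52 (SE 0.18), with Rhag at -0.42 (SE 0.24) and Klf1 at 0.12 (SE 0.18). Of 8 mast cell and basophil markers 5 were positive; Mcpt8, a basophil protease, differed by 0.45 (SE 0.16), Cpa3 by -0.41 (SE 0.27) and Tpsb2 by 0.13 (SE 0.14). Of 7 megakaryocyte markers 4 were negative, with Gp1ba at -0.67 (SE 0.26), Gp6 at 0.41 (SE 0.16) and Itga2b at -0.18 (SE 0.23). Above the receptor percentile lay 2 of the 7 erythroid, 1 of the 8 mast cell and basophil and 3 of the 7 megakaryocyte markers. No marker passed adjustment in limma (adjusted p = 0.668 at the lowest).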
